A study of Bos taurus with 40 samples.

Results

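Gene expression in the liver was compared with that in the abdominal fat of the same 10 Korean cattle, 5 cows and 5 bulls, by RNA sequencing. The liver and fat libraries were taken by their labelled tissue and paired by the animal's ear tag, which gave 20 libraries, 10 per tissue, of the 40 in the series. The remaining libraries of these animals, from longissimus dorsi muscle and pituitary gland, were not used. No allele, diet or agent is named in the labels. The cattle were older than 22 months at slaughter and had carcasses of 353 ± 36 kg. By label the groups were female liver, male liver, female fat and male fat, with 5 animals in each and 1 library per animal and tissue. The labels give no feed or fasting state.

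In ruminants, microbes in the rumen ferment most dietary carbohydrate to acetate, propionate and butyrate, so little glucose reaches the blood from the gut. The liver makes glucose throughout the day, largely from propionate, oxidises fatty acids and secretes lipoproteins and bile acids. Adipose tissue builds fatty acids mainly from acetate, stores them as triacylglycerol and releases them by lipolysis under hormonal control.

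A level is a gene's read count as a share of all reads counted on genes (CPM), scaled by TMM factors, which set the bulk of genes level between libraries. It is given as the lowest, the median and the highest of the 10 libraries of a tissue. A difference is the log2 ratio of liver to fat within animals, with its standard error, so that a positive value means higher in liver. The standard error was worked back from the difference and the statistic of edgeR's quasi-likelihood test. It is too small for genes with very few reads in the lower tissue, such as CYP7A1 with 5 reads over the fat libraries. Transcript lengths were not used, so levels of different genes were not compared with each other. In whole tissue, fewer cells of a type and less RNA per cell cannot be told apart.

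Libraries held between 6898811 and 16532755 reads on 13570 genes, of which 12891 had at least 1 read. The labelled tissues matched their defining markers: all 10 hepatocyte markers were higher in liver, with a summed level of 161135 to 350042 CPM against 70.8 to 1826 CPM in fat, and all 7 measured adipocyte markers were higher in fat, with a summed level of 7399 to 27265 CPM against 147.6 to 364 CPM in liver. Other cells differed too, and their part in the results below was not tested. Fibroblast markers (6 of 6), smooth muscle markers (4 of 4) and 3 of 6 endothelial markers were higher in fat (1 of the 6, KDR, was higher in liver), with summed fibroblast levels of 8686 to 45751 CPM in fat and 376 to 685 CPM in liver. Lymphocyte markers (6 of 6) and 3 of 5 macrophage markers were higher in liver. Skeletal muscle markers were highest in the liver of bull 2, at 185 CPM in sum, and in the fat of cow 5, at 158 CPM. Of the pancreas markers 2 of 4 were higher in fat, where their sum reached 119 CPM in cow 2. Of the mesothelium markers 2 of 3 were higher in liver, among them KRT18, a keratin that hepatocytes also make, while UPK3B was higher in fat. Of the bile duct markers 2 of 3 were higher in liver. KRT19 was not called (-1.05), and the median of the bile duct sum was 29.6 CPM in liver and 34.7 CPM in fat. Of the red cell markers 1 of 3, HBB, was called, towards liver, with at most 0.698 CPM there and no read in fat. Over all genes tested 27.7% were higher in liver and 31.5% in fat.

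Some libraries stood apart. The liver labelled bull 3 held 1392 CPM of XIST, the RNA of the inactive X chromosome, and no read of the Y-linked genes USP9Y, DDX3Y and ZFY, while the livers of the other bulls held at most 0.930 CPM of XIST. Its nearest library was the liver of cow 4 (Pearson's r = 0.993 across genes). The fat of bull 3 held 0.182 CPM of XIST and 33.8 CPM of USP9Y. The male label of that liver and its pairing with this fat are therefore in doubt, and it was kept as labelled. The fat of bull 5 held 1.77 CPM of USP9Y against 28.0 to 33.8 CPM in the fat of the other bulls, and had the lowest mean correlation with the other fat libraries (r = 0.902). The counts below were recomputed without these animals.

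Most genes differed between the tissues. By edgeR's quasi-likelihood test with the animal as a block and Benjamini-Hochberg adjustment at 0.05, 7620 genes (59.1%) were called, 3565 higher in liver (27.7%) and 4055 higher in fat (31.5%). Requiring a difference of at least 4-fold besides left 3232 genes (25.1%), 1534 higher in liver (11.9%) and 1698 higher in fat (13.2%). In 2758 genes (21.4%) the levels of the tissues did not overlap, with the livers above in 1353 (10.5%) and the fat above in 1405 (10.9%). The median difference over all genes was -0.13. With total reads in place of the TMM factors that median moved to -0.79 and the split became 2026 against 6437. In liver the 10 most counted genes took 21.2% to 34.6% of the reads, against 9.38% to 13.0% in fat. Without bull 3 and bull 5, 3530 genes were higher in liver and 3432 in fat.

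Of 356 genes in 17 lists of lipid and glucose metabolism, 309 were tested: 141 were higher in liver, 108 were higher in fat and 60 were not called, which is 80.6% called against the 59.1% of all genes. The levels did not overlap in 163 of them, with the livers above in 98 and the fat above in 65. Over all genes tested 21.4% did not overlap, with the livers above in 10.5% and the fat above in 10.9%. The shares of all genes include genes with very few reads. With edgeR's filter on low counts, 6676 of 10102 genes were called. The lists were chosen with earlier results of these data known and hold adipocyte markers such as LEP and FABP4. These comparisons, and those by list below, therefore do not show an enrichment of metabolic genes, which was not tested. By list, the share called ran from 64.3% (triacylglycerol synthesis) to 100% (bile acids). For the counts by list below, the shares over all genes were 27.7% higher in liver and 31.5% higher in fat. The plot of the lists shows where each one lay.

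**Figure D1:**
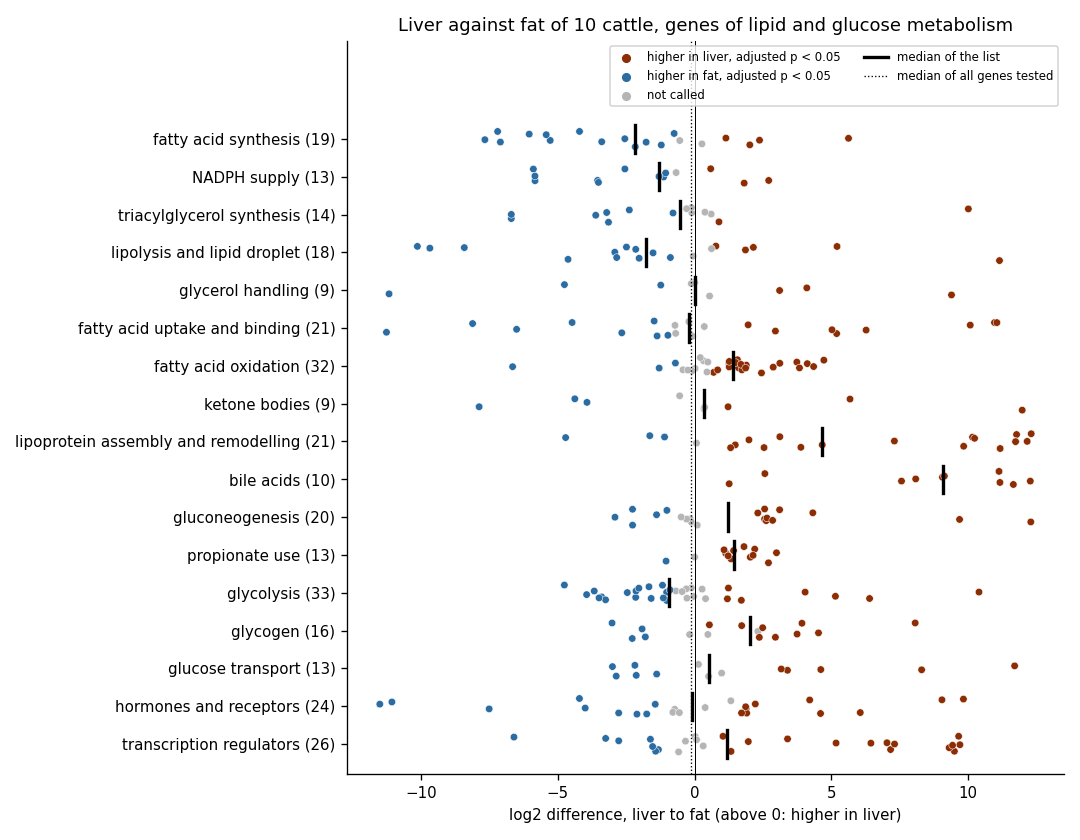
Log2 difference between liver and fat (x axis, log2 ratio within animals; above 0 is higher in liver) for each tested gene of 17 lists (rows, with the number of genes), coloured by the call. Black bars are the list medians and the dotted line is the median of all genes tested, -0.13; bile acid genes lay furthest to the right (median 9.10) and fatty acid synthesis genes furthest to the left (median -2.17).

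Fatty acid synthesis was the list with the lowest median difference, -2.17, or -1.77 with ELOVL3, which had no read in liver, set to its bound. Of its 19 genes 13 were higher in fat, 4 were higher in liver and 2 were not called. Fatty acid synthase, FASN, which assembles palmitate, was at 14.6, 36.6 and 188 CPM in liver and 1906, 6462 and 19816 CPM in fat. Its difference was -7.21 ± 0.47 (edgeR adjusted p = 3.4e-09). The lowest fat library was thus above the highest liver library by an order of magnitude.

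The carbon enters this pathway as acetyl-CoA. ACSS2, the cytosolic enzyme that activates acetate, was at 9.54, 28.1 and 254 CPM in liver and 988, 2364 and 5430.0 CPM in fat, a difference of -6.05 ± 0.47 (edgeR adjusted p = 2.6e-08). ACLY, which cleaves citrate to acetyl-CoA in the cytosol, was at 24.5, 44.7 and 58.8 CPM in liver and 64.1, 202 and 1844 CPM in fat, a difference of -2.55 ± 0.43 (edgeR adjusted p = 1.0e-04). Both were higher in fat in all 10 animals and their tissues did not overlap. ACACA, acetyl-CoA carboxylase 1, which makes the malonyl-CoA for synthesis, was at 30.4, 41.6 and 136 CPM in liver and 271, 978 and 3601 CPM in fat (-4.21 ± 0.42), whereas ACACB, the carboxylase of the mitochondrial surface whose malonyl-CoA restrains fatty acid entry, was higher in liver at 3.31, 6.56 and 19.4 CPM in liver and 0.57, 1.73 and 3.34 CPM in fat (2.02 ± 0.27).

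Desaturases were divided as well. SCD, which places the double bond of oleate, was at 18.8, 81.3 and 2004 CPM in liver and 5666, 13945 and 23030.5 CPM in fat, a difference of -7.11 ± 0.87 (edgeR adjusted p = 4.6e-06), while its relative SCD5 was higher in liver at a difference of 2.38 ± 0.27. FADS2, the delta-6 desaturase of polyunsaturated fatty acids, was at 8.81, 129 and 2833 CPM in liver and 0.547, 2.95 and 10.5 CPM in fat, a difference of 5.63 ± 0.82 (edgeR adjusted p = 2.8e-05). The 4 genes higher in liver were ELOVL5, an elongase of polyunsaturated chains, with ACACB, SCD5 and FADS2, of which ELOVL5 lost its call with total reads. THRSP, a nuclear protein of lipogenic tissues, had the largest difference towards fat of the genes with reads in both tissues, at 4.4, 16.2 and 39.1 CPM in liver and 1282, 3637 and 4516 CPM in fat (-7.67 ± 0.47). Fatty acid chains need NADPH. Of 13 genes listed for its supply, 9 were higher in fat and 3 in liver (NNT, RPE and IDH2). The list also holds pentose phosphate enzymes, such as RPE, that form no NADPH themselves. The call of IDH2 was lost without cow 4, cow 5, bull 1, bull 3 or bull 4 and with upper quartile factors, and its sign turned with total reads. ME1, cytosolic malic enzyme, was at 1.72, 2.9 and 32 CPM in liver and 90.1, 236 and 639.7 CPM in fat (-5.90 ± 0.40), and its mitochondrial relative ME3 was also higher in fat (-5.84 ± 0.49). IDH1, the cytosolic isocitrate dehydrogenase, which textbooks name as an NADPH source of ruminant fat, was at 290.4, 433 and 784 CPM in liver and 441, 1039.7 and 1899 CPM in fat, a difference of -1.13 ± 0.23 (edgeR adjusted p = 6.6e-04), and its tissues overlapped. NNT, which makes NADPH inside mitochondria, was higher in liver (2.71 ± 0.27).

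**Figure D2:**
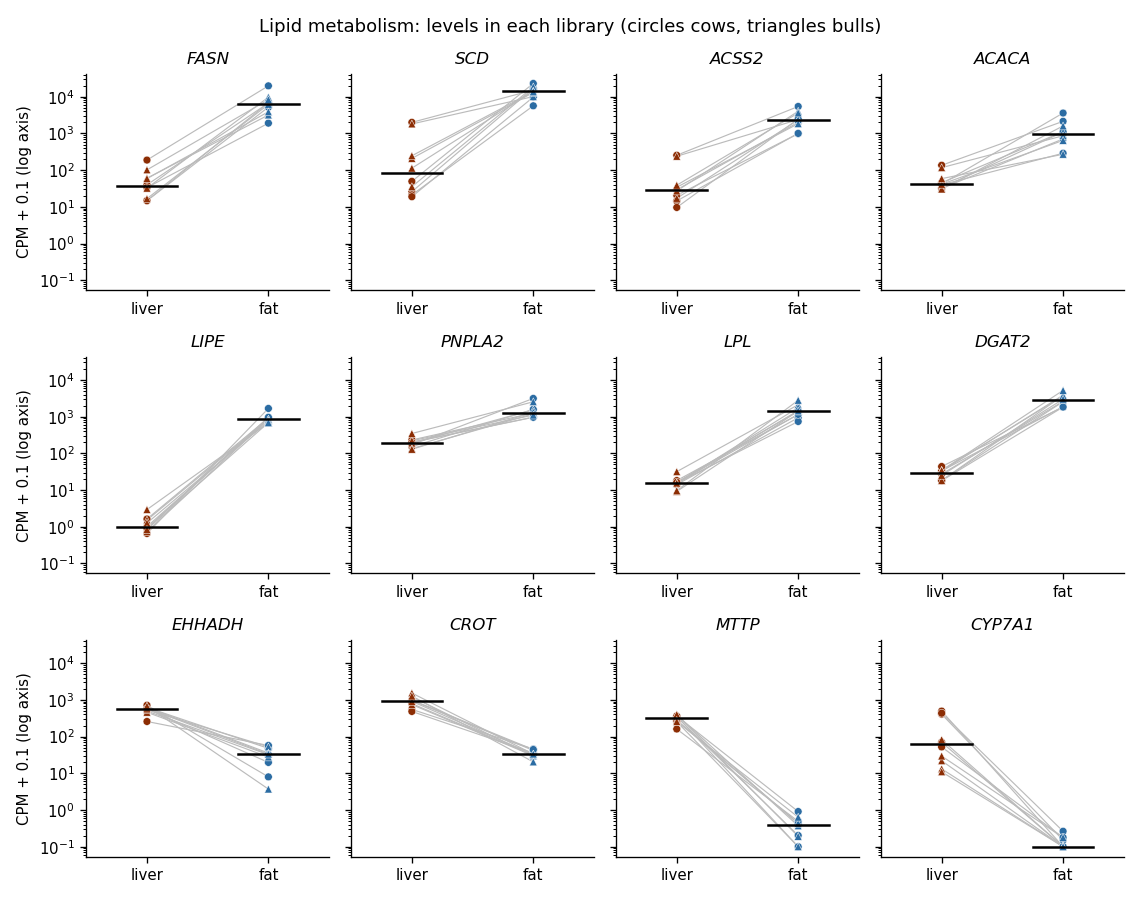
Levels of 12 genes of lipid metabolism in each library (y axis, CPM + 0.1 on a log axis) in liver and fat, with grey lines joining the libraries of an animal, circles for cows, triangles for bulls and black bars for tissue medians. FASN, SCD, ACSS2, ACACA, LIPE, PNPLA2, LPL and DGAT2 were higher in fat and EHHADH, CROT, MTTP and CYP7A1 higher in liver in all 10 animals.

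Triacylglycerol synthesis was less one-sided: 7 of 14 genes were higher in fat, 2 in liver and 5 were not called (median -0.54). Its share called, 64.3%, was near the 59.1% of all genes. GPAM, the mitochondrial acyltransferase that adds the first acyl chain to glycerol 3-phosphate, was at 49.7, 119.8 and 214 CPM in liver and 487, 1155 and 1478 CPM in fat, a difference of -3.22 ± 0.34 (edgeR adjusted p = 8.8e-07). DGAT2, which adds the last chain, was at 17.9, 30 and 43.7 CPM in liver and 1827, 2798 and 5199 CPM in fat, a difference of -6.71 ± 0.31 (edgeR adjusted p = 5.8e-11). In both genes every fat library lay above every liver library. DGAT1, the other enzyme of that last step, differed by -0.79 ± 0.25, with overlap (edgeR adjusted p = 0.012, and 0.051 without bull 5). The monoacylglycerol acyltransferases were split. MOGAT1 had 1815 reads over the livers and 1 read over the fat libraries, a scaled ratio of 2972 with a 95% counting interval of 533 to 117434. MOGAT2 had no read in liver and 0.182, 1.07 and 2.10 CPM in fat, at least 2.82-fold higher against the mean level of 3 reads per liver library, 0.371 CPM. AGPAT5, an acyltransferase of the second chain, was higher in liver (0.89 ± 0.18), a call that was lost with total reads as the scaling. LPIN1, a phosphatidate phosphatase, spanned 24.9, 81.7 and 2125 CPM in liver and 6.13, 87.5 and 722 CPM in fat and was not called (0.38 ± 1.03).

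Lipolysis and lipid droplet genes were higher in fat in 11 of 18 cases and higher in liver in 5 (median -1.77). The proteins of the large fat droplet had differences among the largest of the list. PLIN1, the coat that guards it, was at 3.91, 5.4 and 7.25 CPM in liver and 1107, 1988 and 2687 CPM in fat (-8.43 ± 0.27), and CIDEC, which makes droplets fuse, was at 0.255, 1.94 and 7.47 CPM in liver and 1507, 2073 and 5318 CPM in fat (-10.14 ± 0.62). Hormone-sensitive lipase, LIPE, was at 0.558, 0.864 and 2.85 CPM in liver and 674, 853 and 1672 CPM in fat, a difference of -9.69 ± 0.37 (edgeR adjusted p = 1.7e-11). PNPLA2, the lipase of the preceding step, was well read in liver too, at 129, 195 and 347 CPM in liver and 959.9, 1289 and 3137 CPM in fat, a difference of -2.92 ± 0.24 (edgeR adjusted p = 5.4e-08). Its inhibitor G0S2 was at 19.9, 47.9 and 208 CPM in liver and 69.6, 177 and 3019 CPM in fat (-2.15 ± 0.56, not called in bulls only), and the fat of 3 cows and 3 bulls lay below the highest liver. Towards liver were HSD17B13, a droplet protein of hepatocytes, at 767, 1156 and 1685 CPM in liver and 0.0909, 0.477 and 1.64 CPM in fat (11.16 ± 0.46), and CIDEB, the hepatocyte relative of CIDEC, at 176, 269 and 335 CPM in liver and 2.74, 7.11 and 15 CPM in fat (5.21 ± 0.25). The remaining genes higher in liver were PLIN3, HILPDA and FITM1, which bind or shape droplets, the last of them lost without cow 1, cow 3, bull 1 or bull 4.

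The glycerol channels were divided between the tissues. AQP7, the glycerol channel of adipocytes, was at 441, 482 and 989 CPM in fat and 0, 0.162 and 1.42 CPM in liver, a difference of -11.18 ± 0.48 (edgeR adjusted p = 3.4e-11). AQP9, the glycerol channel of hepatocytes, was at 73.4, 155 and 362 CPM in liver and 0, 0.175 and 1.05 CPM in fat, a difference of 9.40 ± 0.64 (edgeR adjusted p = 5.2e-09). No library of the lower tissue reached the level of the higher one in either gene. GK, glycerol kinase, which returns glycerol to metabolism, was at 55.5, 127 and 363 CPM in liver and 3.52, 7.42 and 15.7 CPM in fat (4.11 ± 0.34). AQP3, a further glycerol channel, was higher in fat (-4.76 ± 0.41), as was GPD1, which links glycerol 3-phosphate to glycolysis (-1.24 ± 0.22). Of the 9 genes of glycerol handling 3 were higher in liver (AQP9, GK and PCK1), 3 in fat and 3 were not called. The share called, 66.7%, was near the 59.1% of all genes.

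Fatty acid uptake and binding counted 8 of 21 genes higher in liver and 8 higher in fat, against 27.7% and 31.5% of all genes. The binding proteins exchanged places between the tissues. FABP4, the adipocyte form, was at 1101, 5139 and 14355 CPM in fat and 0.609, 1.72 and 9.96 CPM in liver, a difference of -11.27 ± 0.65 (edgeR adjusted p = 7.6e-10). FABP1, the liver form, was at 134, 1124 and 1989 CPM in liver and 0, 0.34 and 1.46 CPM in fat, a difference of 10.97 ± 0.53 (edgeR adjusted p = 9.6e-11). FABP5, a second form of fat, was at 313, 715 and 1684 CPM in fat and 0.14, 1.81 and 15.1 CPM in liver (-8.12 ± 0.56). Lipoprotein lipase, LPL, which frees fatty acids from circulating particles, was at 9.09, 15.3 and 31.7 CPM in liver and 739, 1429 and 2798 CPM in fat, a difference of -6.51 ± 0.31 (edgeR adjusted p = 9.4e-11), and hepatic lipase, LIPC, was at 139.8, 196 and 361 CPM in liver and 0, 0.181 and 0.407 CPM in fat (10.09 ± 0.36). CD36, a fatty acid translocase, was read in both tissues at 532, 881 and 1260.2 CPM in liver and 769, 2623 and 4226 CPM in fat, a difference of -1.48 ± 0.26 (edgeR adjusted p = 1.8e-04), higher in fat in 9 of 10 animals. Of the transporters that also activate fatty acids, SLC27A2 was higher in liver (11.06 ± 0.46). SLC27A1 was -0.98 towards fat, which lost the threshold without any of cow 1, cow 3, cow 4, cow 5, bull 2, bull 3 or bull 5. The ligases ACSL1 (1.96 ± 0.32) and ACSL5 (5.03 ± 0.45), which turn fatty acids to acyl-CoA, were both higher in liver.

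Fatty acid oxidation ran towards liver, with 21 of 32 genes higher there, 3 higher in fat and 8 not called (median 1.39). With total reads as the scaling the count towards fat was 8 and that towards liver 18. EHHADH, which carries out middle steps of peroxisomal oxidation, was at 258, 581 and 712 CPM in liver and 3.61, 32.6 and 57.1 CPM in fat (4.36 ± 0.46), and CROT, which hands the shortened chains on as carnitine esters, was at 483, 938 and 1531 CPM in liver and 20.3, 32.9 and 45.6 CPM in fat (4.73 ± 0.28). Neither overlapped between tissues. The 3 genes higher in fat included ABCD2, a peroxisomal importer of very long chains, and ACOX3, a peroxisomal oxidase that lost the threshold without cow 4, cow 5, bull 1, bull 2 or bull 3. ABCD2 had 300 reads over the fat libraries and 1 over the livers, a scaled ratio of 183 with a 95% counting interval of 32.6 to 7261. CPT1B, the muscle form of the carnitine transferase that admits fatty acids to mitochondria, was at 5.44, 16.1 and 61.6 CPM in liver and 10.6, 23.6 and 44.3 CPM in fat and was not called (-0.43 ± 0.32). It was called towards fat with total reads (-1.14, edgeR adjusted p = 0.0058) and in bulls only (-0.96, edgeR adjusted p = 0.047), and stood at 0.13 in cows only. CPT1A was not analysed here.

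Of 9 ketone body genes 3 were higher in liver, 3 in fat and 3 were not called, and without bull 5 the count towards liver was 5. With all animals the share called, 66.7%, was near the 59.1% of all genes. The 3 genes higher in fat were BDH1, OXCT1 and AACS. BDH1, the mitochondrial enzyme that interconverts acetoacetate and 3-hydroxybutyrate, was at 4.4, 17.4 and 88.5 CPM in fat and 0, 0 and 0.711 CPM in liver, a difference of -7.88 ± 0.62 (edgeR adjusted p = 2.3e-08). Its median over the livers was thus 0 reads, whereas BDH2, a cytosolic dehydrogenase, was at 48.4, 70.8 and 101 CPM in liver and 15.4, 32.3 and 53.8 CPM in fat (1.23 ± 0.20). OXCT1, which activates acetoacetate for use, was at 33.9, 191 and 455 CPM in fat and 5.68, 9.82 and 21.4 CPM in liver (-3.94 ± 0.38). AACS, which turns acetoacetate to lipid precursors in the cytosol, was at 14.2, 41.5 and 97.5 CPM in fat and 1.12, 2.23 and 2.53 CPM in liver (-4.38 ± 0.23). SLC16A6, a ketone body exporter, was higher in liver (5.69 ± 0.64).

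Lipoprotein genes were higher in liver in 17 of 21 cases (median 4.67) and higher in fat in 3. MTTP, which loads lipid onto nascent particles, was at 160.3, 311 and 399.9 CPM in liver and 0, 0.298 and 0.807 CPM in fat, a difference of 10.17 ± 0.53 (edgeR adjusted p = 2.6e-10). APOH, a plasma protein carried on lipoproteins, was at 4677, 6202 and 9394 CPM in liver and 0.273, 1.24 and 6.91 CPM in fat (12.17 ± 0.64). The 3 genes higher in fat were VLDLR, a receptor that captures triacylglycerol-rich particles, at 28.9, 81.2 and 148 CPM in fat and 1.56, 2.73 and 5.27 CPM in liver (-4.72 ± 0.31), the cholesterol exporter ABCG1 (-1.64 ± 0.52) and PLTP, the phospholipid transfer protein (-1.10 ± 0.32). ABCG1 lost the threshold without bull 3 and cow 4 (-1.36, edgeR adjusted p = 0.074) and in cows only (-1.18, edgeR adjusted p = 0.22), where the count towards fat was 1. APOB was not analysed here. All 10 bile acid genes were higher in liver (median 9.10). CYP7A1, the rate-limiting enzyme of bile acid synthesis, was at 10.9, 60.9 and 494 CPM in liver and 0, 0 and 0.163 CPM in fat, a difference of 11.66 ± 0.49 (edgeR adjusted p = 2.3e-11). AKR1D1, which reduces the ring of the bile acid precursor, was at 281, 578 and 999.7 CPM in liver and 0, 0.073 and 0.626 CPM in fat (12.28 ± 0.46).

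Genes of gluconeogenesis were called in both directions. Of 20 genes 10 were higher in liver, 5 in fat and 5 were not called (median 1.21). Over all genes 27.7% were higher in liver and 31.5% in fat, so the count towards fat was not above the share of all genes. With total reads as the scaling the count towards fat was 10. G6PC, glucose 6-phosphatase, the final enzyme, was at 417, 586 and 1612 CPM in liver and 0.502, 0.701 and 1.38 CPM in fat, a difference of 9.69 ± 0.38 (edgeR adjusted p = 1.8e-11). FBP1, fructose bisphosphatase, which precedes it, was read in fat as well, at 249, 451 and 959.6 CPM in liver and 49.9, 69.5 and 155 CPM in fat, a difference of 2.56 ± 0.27 (edgeR adjusted p = 7.2e-07). PCK1, the cytosolic phosphoenolpyruvate carboxykinase, was at 407, 2306 and 3050.5 CPM in liver and 74.4, 172 and 334 CPM in fat, a difference of 3.11 ± 0.52 (edgeR adjusted p = 1.0e-04), with the livers of cow 4, bull 2 and the one labelled bull 3 at 407 to 444 CPM and the other 7 at 1042 CPM or more. Every liver library still lay above every fat library in these 3 genes.

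The mitochondrial entry steps did not follow them. PCK2, the mitochondrial carboxykinase, was at 252, 365 and 797 CPM in liver and 179, 421 and 995 CPM in fat, a difference of -0.12 ± 0.22 (edgeR adjusted p = 0.65). PC, pyruvate carboxylase, which makes oxaloacetate for both glucose synthesis and citrate export, was at 164, 325 and 987 CPM in liver and 219, 404 and 925 CPM in fat, a difference of -0.16 ± 0.34 (edgeR adjusted p = 0.7), higher in liver in 4 of 10 animals. Neither was called, and in both genes the difference with 2 standard errors on either side stayed within 2-fold under the TMM scaling. With total reads, which moved the median of all genes to -0.79, both were called towards fat, PC at -0.87 (edgeR adjusted p = 0.032) and PCK2 at -0.84 (edgeR adjusted p = 0.0022). TAT, an amino acid catabolic enzyme that feeds glucose synthesis, was at 395, 842 and 1654 CPM in liver and 0, 0.134 and 0.782 CPM in fat (12.30 ± 0.51). The 5 genes higher in fat were the alanine aminotransferases GPT, at 4.67, 8.46 and 31 CPM in fat and 0, 1.39 and 3.25 CPM in liver (-2.91 ± 0.45), and GPT2 (-2.27 ± 0.45), with LDHB, a lactate dehydrogenase subunit (-2.27 ± 0.30), G6PC3, the widely expressed glucose phosphatase (-1.39 ± 0.23), and BRP44L, a subunit of the mitochondrial pyruvate carrier (-1.01 ± 0.27).

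Propionate use was higher in liver in 11 of 13 genes, with 1 higher in fat (median 1.43). Propionyl-CoA carboxylase has 2 subunits. PCCA was at 140.4, 178 and 210.4 CPM in liver and 26.3, 35.6 and 69.5 CPM in fat, a difference of 2.20 ± 0.19 (edgeR adjusted p = 9.2e-08), and PCCB was at 149, 237 and 391 CPM in liver and 61.7, 111 and 154 CPM in fat, a difference of 1.14 ± 0.18 (edgeR adjusted p = 5.0e-05). MUT, the cobalamin-dependent mutase that yields succinyl-CoA, was at 640.4, 851 and 1090.2 CPM in liver and 75.8, 109.6 and 181 CPM in fat, a difference of 2.997 ± 0.21 (edgeR adjusted p = 6.0e-09). MMACHC, which prepares cobalamin for such enzymes, was at 48.2, 67.1 and 85 CPM in liver and 5.22, 9.07 and 18.6 CPM in fat (2.70 ± 0.21). Fat held reads of all 13 genes in every library. The tissues overlapped in 8 of them and did not in 5, against 21.4% of all genes without overlap. SUCLA2, the ATP-forming subunit of succinyl-CoA ligase, was higher in fat (-1.04 ± 0.17).

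**Figure D3:**
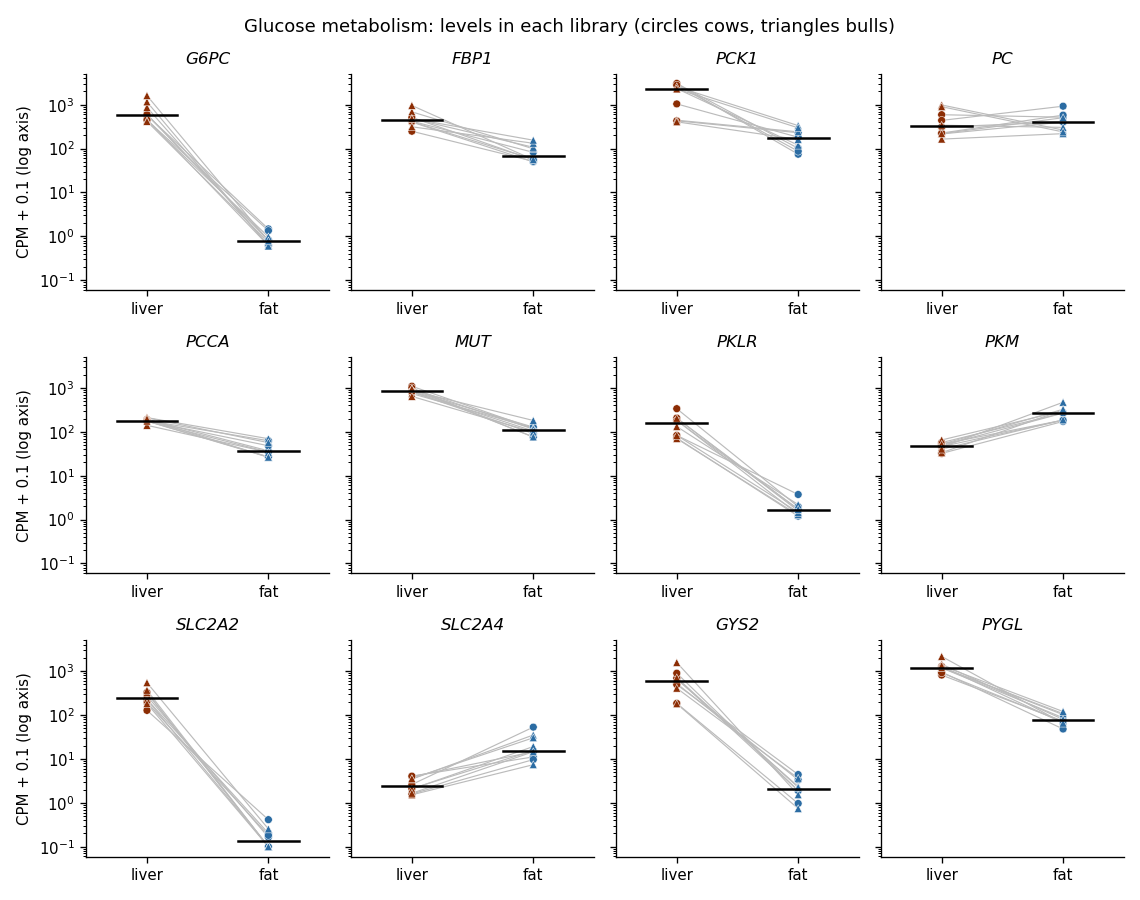
Levels of 12 genes of glucose metabolism in each library (y axis, CPM + 0.1 on a log axis) in liver and fat, drawn as for lipid metabolism. G6PC, FBP1, PCK1, PCCA, MUT, PKLR, SLC2A2, GYS2 and PYGL were higher in liver and PKM and SLC2A4 higher in fat in all 10 animals, while PC crossed between the tissues (higher in liver in 4 of 10).

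Glycolysis leaned towards fat, with 17 of 33 genes higher there, 7 higher in liver and 9 not called (median -0.92). ALDOA, the common aldolase, was at 2374, 3939.8 and 9714 CPM in fat and 91.8, 159 and 224 CPM in liver (-4.76 ± 0.30). The pyruvate kinases were divided between the tissues. PKLR, the liver pyruvate kinase, was at 70, 155 and 336 CPM in liver and 1.09, 1.55 and 3.63 CPM in fat, a difference of 6.40 ± 0.32 (edgeR adjusted p = 1.7e-10), and PKM, the widely expressed one, was higher in fat (-2.46 ± 0.20). HK2 was not analysed here. GAPDH, a gene that every cell uses, was listed with no read in any liver and in 9 of 10 fat libraries, so a 0 in these tables does not by itself show that a gene was silent.

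Glycogen genes were higher in liver in 9 of 16 cases and in fat in 4 (median 2.02, or 1.72 without GYS1). GYS2, the liver glycogen synthase, was at 180.1, 589 and 1569 CPM in liver and 0.637, 1.97 and 4.3 CPM in fat, a difference of 8.07 ± 0.38 (edgeR adjusted p = 7.8e-11). PYGL, the liver phosphorylase that releases glucose 1-phosphate, was at 812, 1203 and 2160.0 CPM in liver and 47.8, 75.8 and 120.0 CPM in fat, a difference of 3.93 ± 0.23 (edgeR adjusted p = 8.7e-10). Both had every liver above every fat library. The 4 genes higher in fat were GYG1, glycogenin 1, which primes the chain (-3.02 ± 0.21), the muscle and brain phosphorylases PYGM (-2.28 ± 0.38) and PYGB (-1.80 ± 0.24), and PHKG1, a catalytic subunit of phosphorylase kinase (-1.92 ± 0.37). GYS1, the synthase of other tissues, had 4 reads in liver and none in fat and is not interpreted. Glucose carriers split 5 to 5 of 13, against 27.7% of all genes higher in liver and 31.5% higher in fat. SLC2A2, the high-capacity carrier of hepatocytes, was at 127, 249.8 and 544 CPM in liver and 0, 0.0323 and 0.313 CPM in fat, a difference of 11.71 ± 0.54 (edgeR adjusted p = 5.3e-11). SLC2A4, the insulin-responsive carrier, was at 7.28, 14.9 and 52.9 CPM in fat and 1.42, 2.26 and 3.94 CPM in liver, a difference of -2.87 ± 0.28 (edgeR adjusted p = 3.5e-07), and SLC2A3, a high-affinity carrier, was also higher in fat (-3.01 ± 0.27). SLC5A1, a sodium-coupled glucose carrier, had 919 reads over the livers and 3 over the fat libraries, a scaled ratio of 502 with a 95% counting interval of 171 to 2436.

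Of 24 hormones and receptors 10 were higher in liver and 9 in fat, against 27.7% and 31.5% of all genes. Leptin, LEP, the hormone of fat stores, was at 478, 723 and 2202 CPM in fat and 0, 0.145 and 2.31 CPM in liver, a difference of -11.52 ± 0.58 (edgeR adjusted p = 1.6e-10), and ADIPOQ was not analysed here. GCGR, the glucagon receptor, was at 117, 194 and 298 CPM in liver and 0.163, 0.338 and 0.614 CPM in fat, a difference of 9.05 ± 0.31 (edgeR adjusted p = 8.8e-12). FGFR4, through which FGF signals restrain bile acid synthesis, was at 21.1, 36.2 and 93.6 CPM in liver and 0, 0 and 0.115 CPM in fat (9.84 ± 0.48). ADORA1, an adenosine receptor that inhibits lipolysis, had 6634 reads over the fat libraries and 1 over the livers, a scaled ratio of 4052 with a 95% counting interval of 727 to 160069. ADRB3, the beta-3 adrenergic receptor known from lipolysis in rodent fat, was barely read in either tissue, at 0.14, 0.511 and 1.99 CPM in liver and 0, 0.147 and 2.46 CPM in fat, and was not called (1.33 ± 0.70 (edgeR adjusted p = 0.1)). Its call depended on the set of animals and the tool: adjusted p was 0.028 without bull 3 and 0.035 by DESeq2, towards liver in both. INSR was not analysed here.

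Transcription regulators were higher in liver in 14 of 26 cases and in fat in 7 (median 1.19), against 27.7% and 31.5% of all genes. PPARG, the regulator of adipocyte formation, was at 23.9, 46.5 and 78.2 CPM in fat and 0.14, 0.348 and 1.78 CPM in liver, a difference of -6.61 ± 0.34 (edgeR adjusted p = 2.2e-10). PPARA, which governs oxidation and ketogenesis in liver, was at 52, 96.5 and 240.2 CPM in liver and 4.31, 8.45 and 26.3 CPM in fat, a difference of 3.40 ± 0.34 (edgeR adjusted p = 4.0e-07). HNF4A, a nuclear receptor of hepatocytes, was at 378, 881 and 1441 CPM in liver and 10.3, 29.2 and 43 CPM in fat, a difference of 5.18 ± 0.36 (edgeR adjusted p = 7.9e-09). None of these 3 overlapped. The regulators of lipogenesis went in opposite directions with overlap: SREBF1, which acts under insulin, was at 51.5, 90 and 275 CPM in liver and 117, 229 and 974 CPM in fat, a difference of -1.43 ± 0.25 (edgeR adjusted p = 1.9e-04), and MLXIPL, which responds to glucose, was at 196, 293 and 407 CPM in liver and 45.3, 62.6 and 259 CPM in fat, a difference of 1.97 ± 0.24 (edgeR adjusted p = 4.0e-06). EBF1, a regulator of adipocyte precursors, was higher in fat (-3.25 ± 0.48), and the hepatocyte regulators CREB3L3 (9.71 ± 0.53) and ONECUT1 (9.66 ± 0.43) were higher in liver.

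Related genes of the same step were then compared within the library, where the scaling between tissues cancels. Of 31 pairs, each with a first gene assigned as the liver form, 23 had enough reads. That assignment does not hold for every pair: PCK1, set second to PCK2, was the one higher in liver. An exact two-sided sign-flip test over the 10 animals, whose smallest p is 0.00195, called 22 of the 23 after Benjamini-Hochberg adjustment. In 18 the first gene was relatively higher in liver and in 4 relatively lower, and 19 had the same sign in every animal. The pairs were chosen with earlier results of these data known, so these counts describe the chosen pairs only. In 12 pairs the genes were themselves called in opposite directions. The widest gap was that of FABP1 and FABP4, whose log2 ratios differed by 22.3 ± 1.97 (SD, n = 10), followed by AQP9 and AQP7 at 21.0 ± 3.12. Pyruvate kinase (PKLR and PKM) stood at 8.83 ± 0.84 and phosphorylase (PYGL and PYGM) at 6.15 ± 1.34.

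The 4 pairs whose first gene was relatively lower in liver were DGAT2 and DGAT1 at -5.91 ± 0.81, MOGAT2 and MOGAT1 at -12.5 ± 2.60, PCK2 and PCK1 at -3.22 ± 1.53, and FBP1 and FBP2 at -1.63 ± 1.54, the last with 1 of 10 animals on the other side. FBP2, the muscle form of fructose bisphosphatase, was low in both tissues, at 0.951, 5.35 and 26.2 CPM in liver and 0.0909, 0.252 and 0.665 CPM in fat. In 5 pairs both genes were higher in fat and the gap lay in degree: ACSS1, the mitochondrial acetate enzyme, and ACSS2 differed by 2.59 ± 2.24 and PFKL and PFKP, phosphofructokinases, by 2.01 ± 0.46. The adiponectin receptors ADIPOR2 and ADIPOR1 gave -0.31 ± 0.73, which the exact test did not call (p = 0.225). The lack of a call does not show that the receptors were equally divided.

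**Figure D4:**
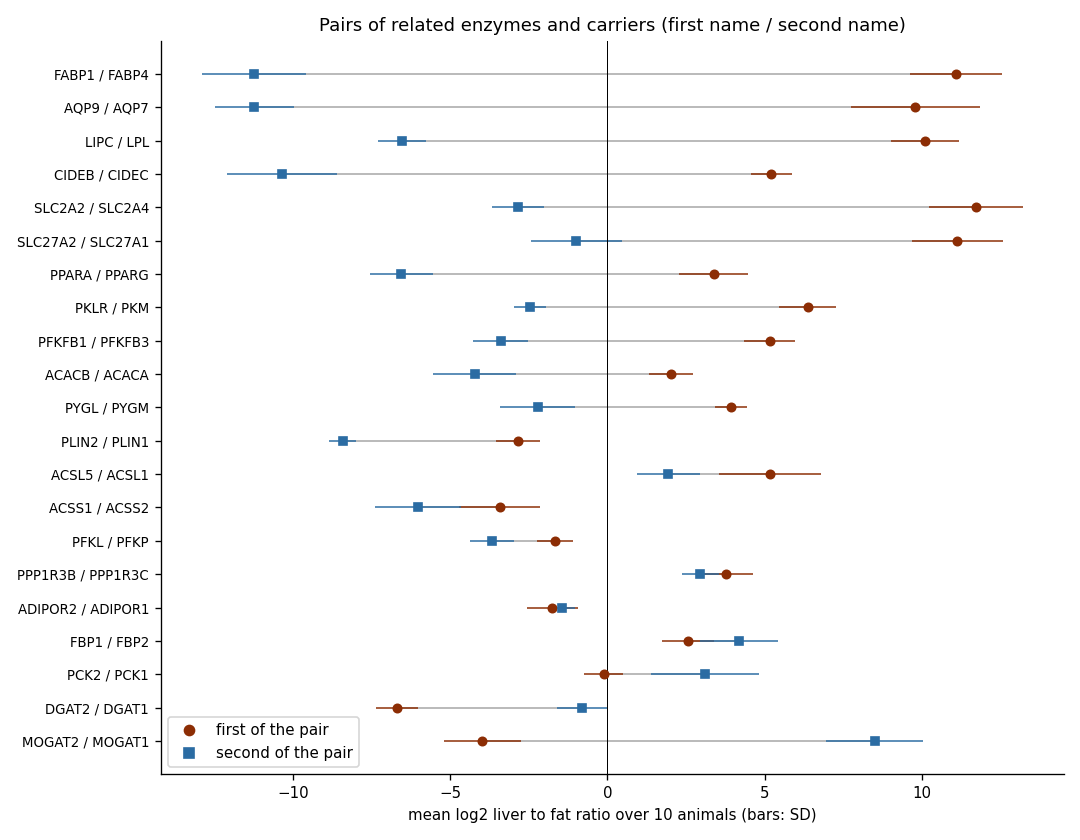
Mean log2 liver to fat ratio over 10 animals (x axis, bars are SD, 0.5 reads added) of the first (circles) and the second gene (squares) of 21 pairs, ordered by the gap between them. FABP1 and FABP4 stood furthest apart (22.3). The called pairs DGAT2 and DGAT1, PCK2 and PCK1, FBP1 and FBP2 and MOGAT2 and MOGAT1 lay in the opposite order, with the circle to the left. ADIPOR2 and ADIPOR1, a pair that was not called, also had the circle to the left.

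The animals varied widely in some of these genes. Among list genes with a mean of at least 10 CPM, the ratio of the highest to the lowest library had a median of 6.02 for fatty acid synthesis in fat and 4.57 in liver, against 3.82 and 2.59 over all genes at that level. For fatty acid oxidation the medians were 3.66 in fat and 2.33 in liver. In fat, cow 4 was the highest library for 8 of 18 fatty acid synthesis genes, among them FASN at 19816 CPM, where cow 2 was lowest at 1906 CPM. That fat library also held the highest SREBF1 and MLXIPL and the lowest CD36, at 769 CPM. In liver, cow 4 and the library labelled bull 3 stood above the other 8 livers in SCD (2004 and 1814 CPM against at most 246 CPM), FADS2 (2833 and 2509.7 against at most 367 CPM) and ACSS2 (254 and 239 against at most 38.8 CPM). SCD and ACSS2 were still higher in fat under both labels. These livers were each other's nearest library (r = 0.993), and whether they come from independent animals was not tested. Over all 255 list genes with at least 1 CPM in fat, the fat of bull 5 was the highest library for 80 and the lowest for 36, and leaving bull 5 out left 245 of the 249 called list genes called in the same direction.

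**Figure D5:**
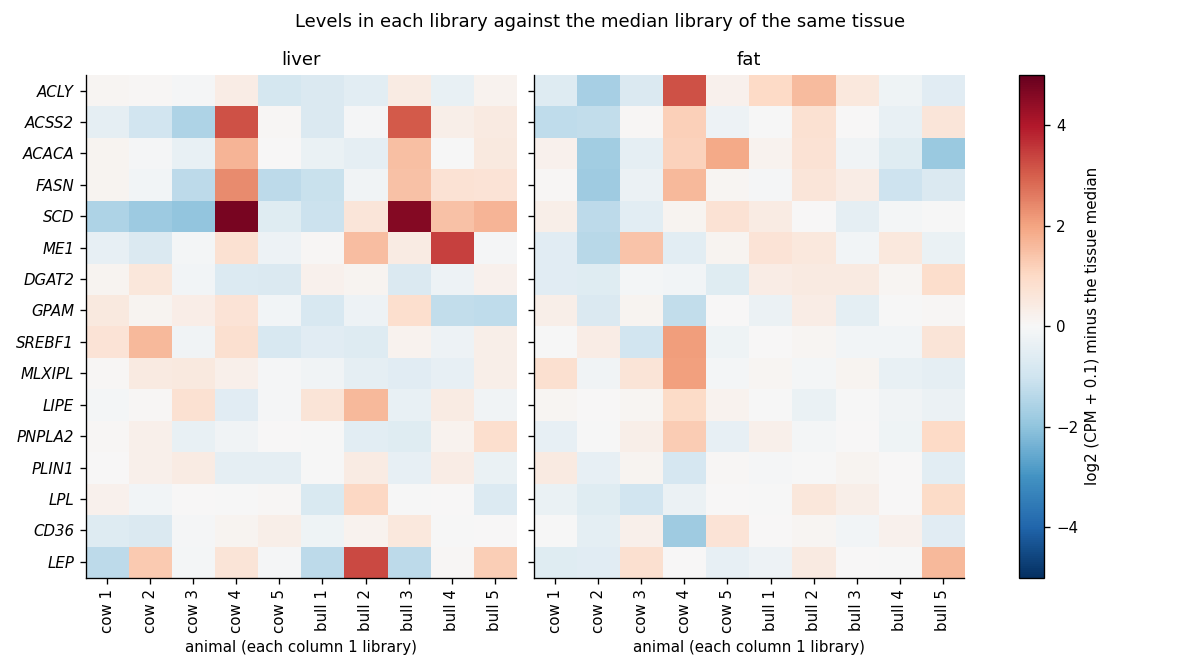
Levels of 16 genes of fat synthesis, storage and release in each library as log2 (CPM + 0.1) minus the median library of the same tissue (colour scale from -5 to 5), with animals as columns, liver on the left and fat on the right. The liver libraries of cow 4 and bull 3 stood out in ACSS2 and SCD (254 and 239 CPM of ACSS2, 2004 and 1814 CPM of SCD), and the fat of cow 4 in ACLY (1844 CPM) and SREBF1 (974 CPM).

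The series was made to compare the sexes, so the dependence of the liver to fat difference on sex was tested as well. No gene passed the adjusted threshold in the interaction test of edgeR's quasi-likelihood fit, and 309 of 12891 (2.4%) had an unadjusted p below 0.05, among them 13 of the 309 list genes (4.21%). This fit counted the liver labelled bull 3 as male, and without bull 3 it also called 0 genes. The likelihood ratio test called 7 genes and DESeq2 called 8, none of them in the lists. The smallest p belonged to SOD3, an extracellular superoxide dismutase, with medians of 84.8 CPM in female liver, 57.4 in male liver, 12.9 in female fat and 27.4 in male fat, an interaction of -1.72 ± 0.32 on the log2 scale (edgeR adjusted p = 1, unadjusted p = 1.0e-04). ATP2A1, the calcium pump of fast muscle (2.43 ± 0.49), and ACTG2, an actin of smooth muscle (-2.92 ± 0.61), followed, also at an adjusted p of 1 by edgeR's quasi-likelihood test. All 3 were among the genes called by the likelihood ratio test (edgeR adjusted p = 0.013 for each) and by DESeq2 (adjusted p = 1.5e-04 for SOD3, 0.0033 for ATP2A1 and 0.016 for ACTG2). In simulated data of this size, with 200 genes changed per set, the interaction test recovered 17.5% of 4-fold differences and none of the 2-fold ones. Smaller dependence on sex was thus not detectable in that setting.

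Outside the lists, the largest differences among genes whose tissues did not overlap were as follows. Towards liver they were CPS1, the urea cycle enzyme that fixes ammonia, at 4789.8, 8239 and 12806 CPM in liver and 0.326, 1.14 and 6.41 CPM in fat (12.73 ± 0.61), AFM, a plasma vitamin E carrier (12.62 ± 0.44), UPP2, a uridine phosphorylase with 13584 reads in liver and 2 in fat, and the secreted protease inhibitors SERPINA3 (12.41 ± 0.52) and SERPINA10 (12.29 ± 0.58). Towards fat they were TUSC5, a membrane protein of adipocytes linked to glucose carrier traffic, at 1207, 1781 and 2706 CPM in fat and 0, 0.462 and 6.05 CPM in liver (-11.70 ± 0.62), SNCG, gamma-synuclein (-11.12 ± 0.58), ADIG, adipogenin (-10.75 ± 0.50), MFAP5, a matrix protein of fibroblasts (-10.66 ± 0.56), and S100A5, a calcium-binding protein with no read in liver, at least 134.6-fold higher in fat against the mean level of 3 reads per liver library.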

How the data were processed

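RNA of liver and abdominal fat was sequenced per animal. Per the labels and methods, the authors trimmed reads with Trimmomatic, aligned them to bosTau7 with Bowtie2 and TopHat2 and counted uniquely aligned reads per gene with HTSeq; strand and counting mode are not given in the sources used here. They deposited raw read counts per gene, which miss reads shared between similar gene copies. Rows without a gene name (0.114% to 0.488% of reads) and unassigned reads were excluded. The test, on every gene that any of the 20 libraries read, was run with edgeR 4.0.16 (quasi-likelihood, TMM, prior count 0.125), with the animal as a block because labels give both libraries 1 ear tag. Deviations of the liver and fat of an animal from the tissue means correlated at -0.31 to 0.395, above 0.1 in 6 of 10 animals. They were negative in cow 5 (-0.31) and bull 5 (-0.12). The liver correlated best with the fat of its own animal in 5 of 10 animals, so the pairing rests on the labels. Adjusted p values are over 12891 genes. Intervals cover counting error only. On simulated data for this comparison, with 200 well-read genes of 12891 changed per set, 94.2% of 4-fold and 39.9% of 2-fold changes were recovered, with 5.56% false calls. In the data 59.1% of genes were called, so these rates may not carry over. Members, lists and pairs were chosen with earlier results of these data known. Named were textbook control points, the 2 most different members of a list in each direction with a mean of at least 1 CPM, genes of pairs (at least 10 reads in 5 libraries), the 5 most different others in each direction (at least 10 CPM) and the 3 smallest p for sex; members named beside counts of 5 or fewer, or for a lost call, and the libraries and genes singled out for their spread, were chosen after seeing values. Of the 356 list genes 309 were tested, and CPT1A, APOB, HK2, INSR and ADIPOQ were among those not analysed here. Some genes that these rules name are not reported here. Python 3.11.15, DESeq2 1.42.0 and R 4.3.3 were used.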

Additional observations from a re-analysis of the deposited data

Results flagged for a closer look

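In 78 groups of 10 libraries (a control gene in a tissue) the highest or lowest library was compared with its neighbour by Dixon's criterion, which chance meets in about 1 of 20 groups. It was met 8 times. In fat, cow 4 was highest for LIPE (1672 CPM), PKLR (3.63 CPM), MLXIPL (258.8 CPM) and SREBF1 (974 CPM) and lowest for CD36 (768.5 CPM). In liver, bull 2 was highest for FABP4 (9.96 CPM), and also for LEP (2.31 CPM) and the sum of skeletal muscle markers (185 CPM). Cow 5 was lowest for MTTP (160.3 CPM) and bull 1 for PCCA (140.4 CPM). All 8 genes kept their call and direction without the animal concerned.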

How the results depend on the processing

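Of 123 genes followed through 20 other fits, 2407 of 2453 values kept their direction and their side of the threshold, and 242 of 249 called list genes kept call and direction whichever animal was left out (the exceptions were ACOX3, DGAT1, FABP6, FITM1, IDH2, PGAM2 and SLC27A1). The calls of 223 held in cows only, 232 in bulls only, 232 with edgeR's filter on low counts, under which a gene it drops counts as not held, and 240 both without bull 3 and cow 4 and without bull 3 and bull 5. IDH1 (adjusted p = 0.087 by edgeR), SREBF1 (0.057), DGAT1 (0.26) and ABCG1 (0.22) were not called in cows only, nor G0S2 in bulls only (0.090). With total reads as the scaling, 2026 genes were higher in liver and 6437 in fat (2659 of them at least 4-fold), 235 of the 249 list calls held, and IDH2, PGM1 and SLC25A20 changed sign; DESeq2 moved the median of all genes to 0.01 and upper quartile factors to -0.19. With cows only, 2364 and 2447 genes were called. Genes whose difference depended on sex numbered 7 by the likelihood ratio test, 8 by DESeq2, 1 without bull 3 and cow 4, and 0 to 1 leaving out each animal (KLHL31 without cow 4); the cause was not tested. Isoenzyme pairs called were 0 with cows only and 0 with bulls only, since 5 animals cannot reach the threshold.

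Genes that were not called changed sign or gained a call. With total reads PC (-0.87), PCK2 (-0.84) and CPT1B (-1.14) were called towards fat, as was CPT1B in bulls only (-0.96). PC was 0.011 without the replicate block, 0.039 without bull 3 and cow 4, 0.11 without bull 3 and bull 5 (a choice made after seeing the data) and 0.47 in bulls only; leaving out each animal it ranged from -0.38 to 0.057. PCK2 was 0.13 in cows only and 0.049 without bull 3 and bull 5, and ranged from -0.21 to 0.063; CPT1B was 0.13 in cows only; LPIN1 was -0.38 with total reads and -0.024 in bulls only, and ranged from -0.15 to 0.92. Without the replicate block 3560 genes were higher in liver and 4388 in fat, and 246 of 249 paired list calls held. Depth limits values near 3 reads, a mean of 0.371 CPM in liver and 0.219 CPM in fat.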
